A study of Mus musculus with 12 samples.

Results

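Smoothened (Smo), the hedgehog receptors Ptch1 and Hhip, and the ligand co-receptors Gas1, Cdon and Boc were followed in granule cell progenitors, the dividing neuronal precursors in the outer layer of the developing cerebellum. Members were all probe sets whose platform annotation named exactly one of these 6 gene symbols, 18 probe sets in all (3 each for Smo, Ptch1, Gas1 and Boc, 4 for Hhip and 2 for Cdon). They were 6 of 18193 genes measured. The brightest probe set of each gene, by its mean over all 12 arrays, was read first and the others beside it.

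The 4 groups were SmoM2 hemisphere, wild type hemisphere, SmoM2 vermis and wild type vermis, with 3 arrays each. SmoM2 mice carried the genotype Atoh1-CreER/+; R26LSL-SmoM2-YFP, in which the Atoh1-driven, tamoxifen-dependent Cre releases an activated Smoothened fused to YFP from the Rosa26 locus, and they received 200 µg of tamoxifen per g at postnatal day 2. The strain background, which mixed C57BL/6 and Swiss Webster, and the age, postnatal day 8, were shared by all groups. No source used here says whether tamoxifen was also given to wild type mice. Each array held progenitors from a Percoll gradient, pooled from 5 mice, so that a SmoM2 sample may include cells in which Cre had not acted. The comparisons ask how an activated Smoothened changes gene expression in hemisphere progenitors, which lie laterally, and in vermis progenitors, which lie at the midline.

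Hedgehog ligand, made in the developing cerebellum by Purkinje cells, binds Ptch1 on the progenitor and thereby relieves Smoothened, a membrane protein that Ptch1 otherwise holds inactive. Active Smoothened, in the primary cilium, leads to transcription by Gli factors, and this drives progenitor division. Gas1, a protein held to the membrane by a lipid anchor, and Cdon and Boc, related transmembrane proteins of the immunoglobulin superfamily, bind ligand together with Ptch1 and strengthen the response. Ptch1 and Hhip, a membrane protein that captures ligand, are known targets of Gli factors and form negative feedback. In the mouse neural tube, hedgehog signalling is known to lower transcripts of Gas1, Cdon and Boc.

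The promoters of Ptch1 and Hhip, the members with the largest differences below, are shown because Gli binding sites hold the letters GGGTGG. RefSeq sequences were found for 5 of the 6 genes (GRCm38.p6, 250 bases before to 50 after an annotated start). They are written 5′ to 3′ on the gene's strand, and capitals mark GGGTGG or its reverse complement CCACCC.
Ptch1, chr13:63565686-63565985, minus strand: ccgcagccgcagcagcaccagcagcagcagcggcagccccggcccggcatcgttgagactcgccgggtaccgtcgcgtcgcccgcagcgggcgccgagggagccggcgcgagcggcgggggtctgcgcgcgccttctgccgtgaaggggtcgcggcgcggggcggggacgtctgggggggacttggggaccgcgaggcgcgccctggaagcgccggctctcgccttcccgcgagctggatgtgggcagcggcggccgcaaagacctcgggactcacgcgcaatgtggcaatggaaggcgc
Hhip, chr8:80057959-80058258, minus strand: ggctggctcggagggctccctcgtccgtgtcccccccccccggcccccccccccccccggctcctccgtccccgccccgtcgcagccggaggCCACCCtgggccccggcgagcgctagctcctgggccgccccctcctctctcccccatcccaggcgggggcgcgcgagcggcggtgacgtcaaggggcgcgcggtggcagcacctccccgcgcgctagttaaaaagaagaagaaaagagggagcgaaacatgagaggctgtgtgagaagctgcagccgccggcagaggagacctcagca
On either strand these 6 letters occurred once in the Hhip window, 158 bases before the start, and once in that of Smo, 162 bases before it. They were found in 2 of the 5 member windows and in 31.5% of all 32851 promoter windows. The longer form GGGTGGT, which contains the shorter, was in 0 of the 5 and in 4.61% of all windows. A match is a description of letters only.

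The median log2 value of an array was between 4.81 and 4.86 and the lower quartile between 3.24 and 3.42. Arrays of the same group correlated at 0.988 to 0.996 over probe sets, whereas SmoM2 arrays correlated with wild type arrays at 0.979 to 0.989. The 3′ minus 5′ difference of the Actb control probe sets, which follows RNA integrity and labelling, ranged from 0.90 to 1.10 in SmoM2 hemisphere and from 0.46 to 0.79 in wild type hemisphere, and from 0.89 to 1.07 in SmoM2 vermis and from 0.88 to 0.90 in wild type vermis. The dap control transcripts ranged from 10.12 to 11.11 in SmoM2 hemisphere and from 7.92 to 9.63 in wild type hemisphere, and from 10.48 to 10.64 in SmoM2 vermis and from 9.90 to 10.54 in wild type vermis. The wild type hemisphere arrays were the lowest in both readings, and the part of this in the results was not tested.

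In SmoM2 progenitors all 6 members were higher than in wild type in the hemisphere, and 5 of 6 passed as higher in the vermis. Higher calls made up 7.62% of all genes in the hemisphere and 7.56% in the vermis (limma, Benjamini-Hochberg adjusted p under 0.05 over 18193 genes). The median difference of the members was 0.96 for the hemisphere and 0.86 for the vermis, whereas the medians over all genes were -0.05 and -0.06. At the brightest probe set of each of the 6 genes the 3 SmoM2 arrays lay above the 3 wild type arrays in both regions. Groups did not overlap in either direction for 31.7% of all genes in the hemisphere and 39.8% in the vermis. Since these samples hold many cells, a change in the share of expressing cells and a change of RNA per cell cannot be told apart.

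Smo is both the signal transducer and the gene of which an activated copy was introduced. In the hemisphere its brightest probe set read 9.84, 9.71 and 9.66 on the SmoM2 arrays, against 9.41, 9.13 and 9.29 on the wild type arrays. In the vermis it read 9.67, 9.55 and 9.50 in SmoM2, against 9.29, 9.22 and 9.37 in wild type. The SmoM2 arrays were the higher ones in both regions. Smo rose 1.38-fold in the hemisphere (log2 difference 0.46 ± 0.10 SE, n = 3 arrays per group, adjusted p = 0.00852 by limma), the smallest difference among the members. In the vermis the difference was 0.28 ± 0.10 (95% interval 0.06 to 0.51, adjusted p = 0.0741 by limma), which did not pass. That vermis value had an adjusted p of 0.0433 with trended and robust moderation and 0.039 with array weights. In the other 20 of 22 alternatives it did not pass, with an adjusted p of up to 0.228.

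The remaining Smo probe sets bear on whether the introduced allele was read, since a probe set can cover only part of a transcript. The second Smo probe set (1427048_at, which the platform annotation lists under the same sequence entry as the brightest, 1427049_s_at) read 8.14, 8.14 and 8.06 in SmoM2 hemisphere, against 7.79, 7.28 and 7.42 in wild type hemisphere. Its vermis values were 8.01, 7.98 and 7.98 in SmoM2, against 7.77, 7.54 and 7.39 in wild type. Here too every SmoM2 array lay above every wild type array of its region. This probe set differed by 0.61 ± 0.13 (SE) in the hemisphere (adjusted p = 0.00877 by limma over all probe sets) and by 0.43 ± 0.13 in the vermis (adjusted p = 0.0524). The third (1442215_at) was dim, with 21.8% of probe sets dimmer, and differed by 0.28 and 0.12 (adjusted p = 0.17 and 0.552). Which of the 3 can bind the SmoM2-YFP transcript is not stated in the labels or files, so endogenous and introduced Smo RNA cannot be told apart.

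**Figure D1:**
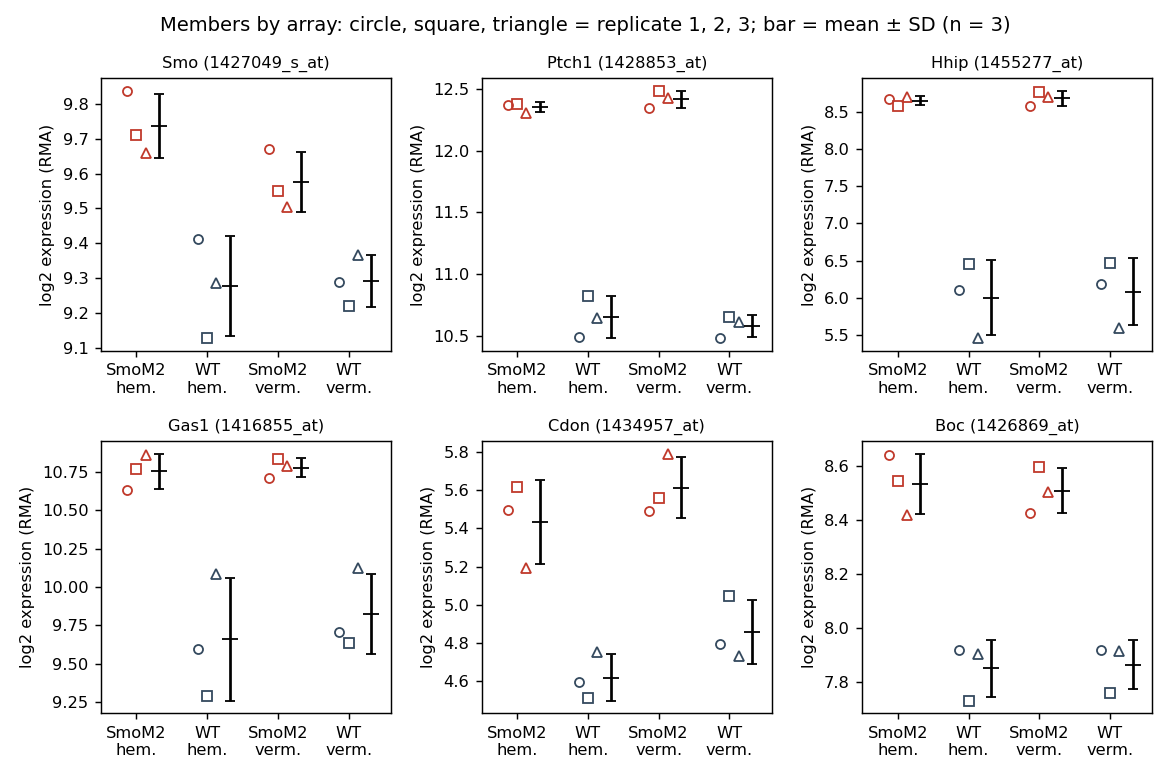
Log2 expression (vertical axes, RMA values, a separate scale for each gene) of the brightest probe set of each member on the 12 arrays, by group (horizontal axes, hem. = hemisphere, verm. = vermis, WT = wild type). Symbols are replicates 1 to 3 and bars are mean ± SD of 3 arrays. Every SmoM2 array lies above every wild type array of its region, and the narrowest gaps are those of Smo.

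Ptch1 (1428853_at), the ligand receptor and a feedback target, had the brightest probe set of the 18. Its hemisphere values were 12.37, 12.38 and 12.30 in SmoM2, against 10.50, 10.83 and 10.64 in wild type. The vermis values were 12.34, 12.48 and 12.42 in SmoM2, against 10.48, 10.66 and 10.62 in wild type. Groups were well apart in both regions, and no wild type array came within 1 log2 unit of a SmoM2 array. Ptch1 rose 3.23-fold in the hemisphere (95% interval of the log2 difference 1.47 to 1.92, adjusted p = 1.11e-07 by limma) and 3.55-fold in the vermis (1.61 to 2.05, adjusted p = 4.85e-08).

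Hhip (1455277_at), the ligand-capturing feedback target, showed the largest difference of the 6 members in both regions. In the hemisphere it read 8.68, 8.59 and 8.70 in SmoM2, against 6.10, 6.45 and 5.45 in wild type. Vermis arrays read 8.58, 8.78 and 8.71 in SmoM2, against 6.18, 6.47 and 5.59 in wild type. SmoM2 arrays lay close together and wild type arrays were spread widely, in the same replicate order in both regions. Hhip rose 6.30-fold in the hemisphere (95% interval of the log2 difference 2.17 to 3.14, adjusted p = 2.37e-06 by limma) and 6.09-fold in the vermis (2.12 to 3.09, adjusted p = 2.96e-06). All 4 Hhip probe sets rose in each region, by 2.66 to 3.39 in the hemisphere and by 2.61 to 3.04 in the vermis. In both regions the interval of Hhip lay above that of Ptch1.

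Gas1 (1416855_at), the lipid-anchored co-receptor, read 10.63, 10.77 and 10.86 in SmoM2 hemisphere, against 9.60, 9.29 and 10.09 in wild type hemisphere. Vermis arrays read 10.71, 10.83 and 10.79 in SmoM2, against 9.71, 9.64 and 10.12 in wild type. Replicate 3 was the highest wild type array in both regions, still below every SmoM2 array. Gas1 rose 2.14-fold in the hemisphere (95% interval of the log2 difference 0.72 to 1.47, adjusted p = 0.000712 by limma) and 1.94-fold in the vermis (0.58 to 1.33, adjusted p = 0.0019).

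Cdon (1434957_at), of the immunoglobulin superfamily, was the dimmest of the 6, with 53.7% of probe sets dimmer. Its hemisphere values were 5.50, 5.62 and 5.19 in SmoM2, against 4.59, 4.51 and 4.75 in wild type. In the vermis they were 5.49, 5.56 and 5.79 in SmoM2, against 4.80, 5.04 and 4.73 in wild type. SmoM2 arrays were again the higher ones, and the differences were 1.76-fold and 1.69-fold (adjusted p = 0.000877 and 0.00148 by limma). The Cdon value depends on the probe set read, as given below, and RMA provides no detection call.

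Boc (1426869_at), the paralogue of Cdon, read 8.64, 8.55 and 8.42 in SmoM2 hemisphere, against 7.92, 7.73 and 7.91 in wild type hemisphere. In the vermis it read 8.43, 8.60 and 8.50 in SmoM2, against 7.92, 7.76 and 7.92 in wild type. The gap between the genotypes exceeded the spread of the arrays in both regions. Boc rose 1.61-fold and 1.56-fold (adjusted p = 0.00044 and 0.000633 by limma). At their brightest probe sets all 3 co-receptors were thus higher in SmoM2 in each region, and their 95% intervals overlapped each other in both regions.

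**Figure D2:**
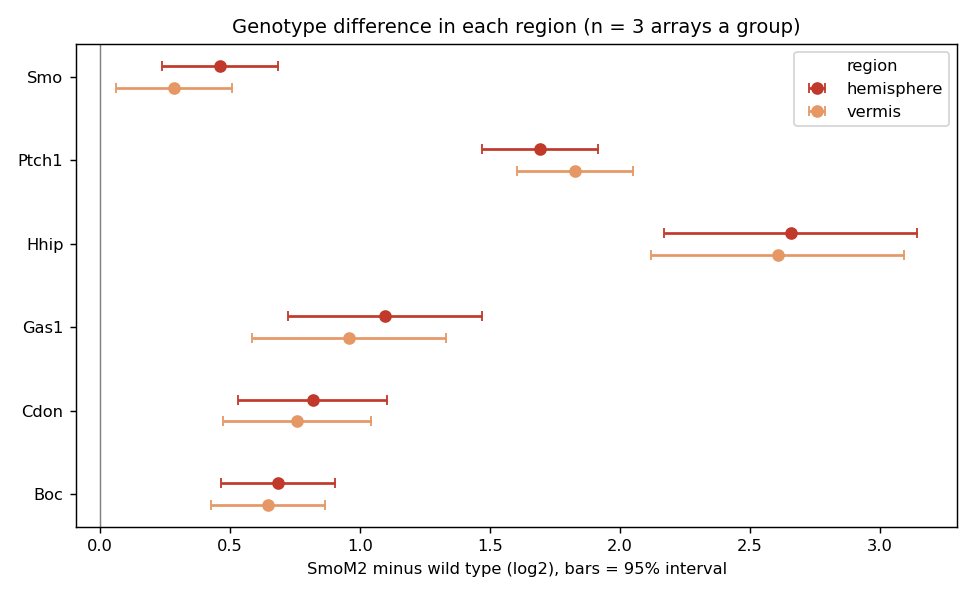
SmoM2 minus wild type difference (horizontal axis, log2) of the brightest probe set of each member in hemisphere (dark) and vermis (light), with bars for the 95% interval from limma (3 arrays per group). Hhip stands at 2.66 and 2.61, Ptch1 at 1.69 and 1.83, the co-receptors between 0.64 and 1.10, and Smo at 0.46 and 0.28.

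Not all probe sets of a gene told the same. Of the 18 probe sets, 13 passed as higher in the hemisphere. In the vermis 11 did, and 0 passed as lower in either region, where 6.21% and 5.68% of all 45037 probe sets passed as higher. The 5 that did not pass in the hemisphere were 1 each for Smo, Ptch1, Gas1, Cdon and Boc, and in each case it was the dimmest of its gene. Their brightness ranged from 3.8% to 48.5% of probe sets dimmer. The dimmest Ptch1 probe set (1450824_at) differed by 0.11 ± 0.10 (SE) in the hemisphere and 0.09 ± 0.10 in the vermis. A further Ptch1 set (1439663_at) rose by 0.64 and 0.69, far less than the brightest. The dimmest Gas1 set (1456322_at) differed by 0.01 and 0.17, whereas the second (1448494_at) rose by 1.33 and 1.08. For Cdon the second set (1421452_at) differed by 0.07 in the hemisphere and -0.34 in the vermis (adjusted p = 0.797 and 0.134 by limma). In the vermis its SmoM2 arrays (4.05, 4.42 and 4.35) all lay below its wild type arrays (4.55, 4.82 and 4.47), the reverse of the brightest set. Boc had a second set (1427516_a_at) that rose by 0.50 and 0.65, and its dimmest set (1427517_at) averaged 2.39 in SmoM2 hemisphere and 2.42 in wild type hemisphere. That set read at most 2.75 on any array, below the lower quartile of every array.

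Averaging all probe sets of a gene lowered the difference of Ptch1, Gas1, Cdon and Boc most. Ptch1 then differed by 0.81 in hemisphere and 0.87 in vermis arrays, and Boc by 0.38 and 0.40. Gas1 was at 0.81 and 0.73 and Cdon at 0.44 and 0.21. The averaged vermis difference of Cdon did not pass (adjusted p = 0.221 by limma), while Hhip was at 2.97 and 2.82 and Smo at 0.45 and 0.28. Fold changes are those of the named probe set, not of all transcripts of a gene.

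**Figure D3:**
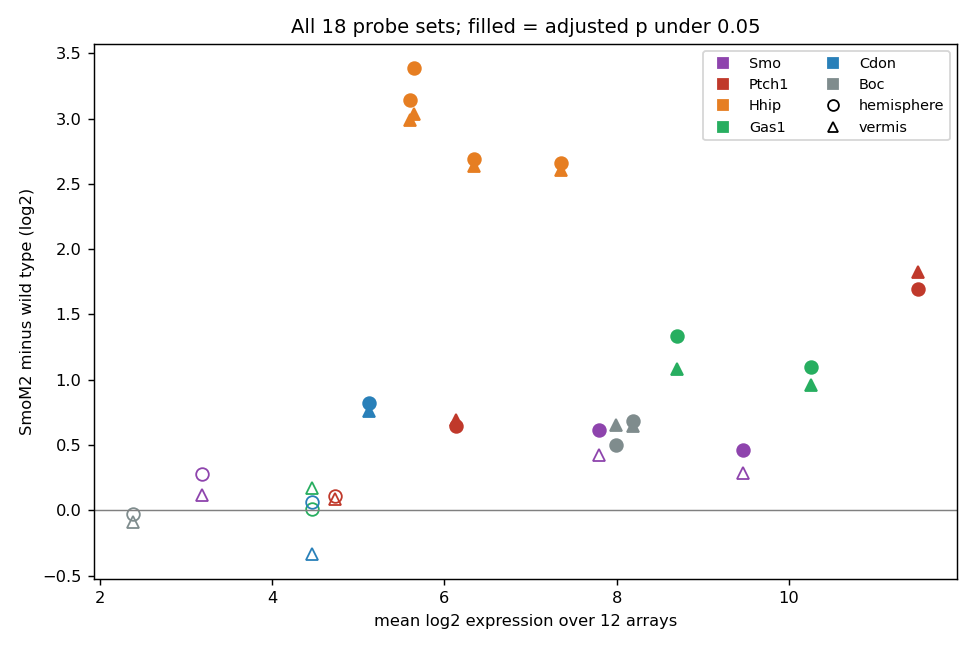
SmoM2 minus wild type difference (vertical axis, log2) against mean log2 expression over the 12 arrays (horizontal axis) for all 18 probe sets, circles for hemisphere and triangles for vermis, filled where the adjusted p was under 0.05. The 5 open circles lie below a mean of 5, and the 4 Hhip probe sets are the highest.

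The next comparison asks whether lateral and midline progenitors differ in these genes. Between hemisphere and vermis, 0 of 6 members passed in SmoM2 and 0 of 6 in wild type (limma), with 0 and 0 of their brightest probe sets at an unadjusted p under 0.05. The same test called 0.0605% of genes in SmoM2 and 0.187% in wild type, and 0 of 18 member probe sets, with 0.0333% and 0.0533% of all probe sets. With the pool as a random block 39 genes were called in SmoM2 in place of 11, and 198 in wild type in place of 34, again with no member among them. At the brightest probe set, hemisphere and vermis arrays overlapped for each member in both genotypes, where they did not overlap for 10.7% of all genes in SmoM2 and 8.77% in wild type. Of all 18 member probe sets, 2 did not overlap between regions in SmoM2, a Smo set (1427048_at, 0.12 higher in the hemisphere) and a Ptch1 set (1450824_at, 0.13 higher). In wild type 1 did not, the dim Smo set 1442215_at (-0.28, unadjusted p = 0.0431 and adjusted p = 0.843 by limma). The share without overlap over all probe sets was not computed, so these counts are descriptions and not a result about the members. A dim Hhip set of wild type (1438083_at), whose arrays overlapped, differed by -0.39 (unadjusted p = 0.0407 and adjusted p = 0.831 by limma). Among the brightest probe sets of the members, Cdon had the largest region difference. It averaged 4.62 ± 0.12 in wild type hemisphere and 4.86 ± 0.17 in wild type vermis (SD, n = 3 each). This was a difference of -0.24 with a 95% interval from -0.53 to 0.05. In SmoM2, Smo averaged 9.74 ± 0.09 in the hemisphere and 9.57 ± 0.09 in the vermis (SD, n = 3 each), a difference of 0.16 with an interval from -0.06 to 0.38.

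The SmoM2 effect itself was also compared between regions. Of the 6 members 0 passed, with 0 at an unadjusted p under 0.05, and this test called 0% of all genes (limma). The effect in the hemisphere minus that in the vermis was 0.18 for Smo (95% interval -0.14 to 0.49, unadjusted p = 0.248 by limma). So a call for Smo in the hemisphere and none in the vermis does not show that the regions differ. For Ptch1 it was -0.14 (-0.45 to 0.18) and for Boc 0.04 (-0.27 to 0.35). The intervals of Hhip (-0.64 to 0.74), Gas1 (-0.39 to 0.67) and Cdon (-0.34 to 0.47) were wider.

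These intervals leave the pools unpaired. Same-numbered arrays of a genotype deviated together, weakly in SmoM2 (correlations 0.142 to 0.275, against -0.224 to 0.277 between genotypes). The labels do not state that they share a pool. They were treated as the same pool, and the regions were also compared within pools. The SmoM2 correlations do not set its pairs apart from arrays of different genotypes, so the within-pool values of SmoM2 rest on an assumed pairing. This used a limma fit over all genes with each pool as a fixed block, added after seeing the data. It gave narrower intervals for every member but Cdon, and 0 of 6 members passed in either genotype or for the difference between the SmoM2 effects. Smo was higher in the hemisphere in 3 of 3 SmoM2 pools, by 0.17, 0.16 and 0.15, with a within-pool interval of the mean from -0.02 to 0.34 (unadjusted p = 0.0745 and adjusted p = 0.776 by limma). In wild type Smo was higher in the hemisphere in 1 of 3 pools, and the interval ran from -0.20 to 0.17. Hhip was lower in the hemisphere in 3 of 3 wild type pools, by differences of -0.08, -0.02 and -0.14, with an interval from -0.27 to 0.11. For Hhip in SmoM2 the interval was -0.22 to 0.16.

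Gas1 was lower in the hemisphere in 3 of 3 wild type pools too (-0.11, -0.35 and -0.04), with a within-pool interval from -0.36 to 0.03 (unadjusted p = 0.0945 and adjusted p = 0.519 by limma). Its SmoM2 interval ran from -0.22 to 0.17. Ptch1 was higher in the hemisphere in 3 of 3 wild type pools (0.01, 0.17 and 0.03, interval -0.11 to 0.25). In SmoM2 the interval of Ptch1 was -0.24 to 0.12. The other cases were mixed. In SmoM2, Ptch1, Hhip, Gas1 and Boc were each higher in the hemisphere in 1 of 3 pools, and Cdon in 2 of 3. Wild type Cdon and Boc were each higher there in 1 of 3. How many of all genes had 3 of 3 pools on the same side was not computed. The pool counts are therefore descriptions and not a result about the members. For Cdon the intervals were -0.51 to 0.15 in SmoM2 and -0.57 to 0.09 in wild type, and for Boc they were -0.17 to 0.22 in SmoM2 and -0.20 to 0.18 in wild type. The SmoM2 effect in the hemisphere minus that in the vermis had a within-pool interval of -0.08 to 0.43 for Smo, -0.22 to 0.32 for Hhip and -0.14 to 0.42 for Gas1, so each of these still included 0.

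**Figure D4:**
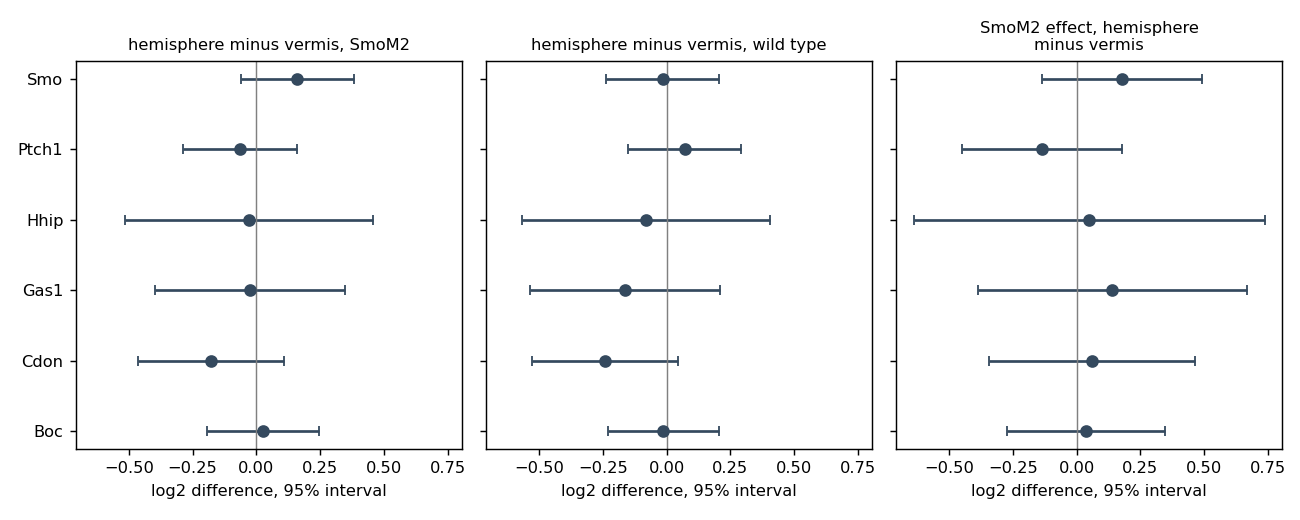
Hemisphere minus vermis difference (horizontal axes, log2) in SmoM2 and in wild type, and the SmoM2 effect in the hemisphere minus that in the vermis, for each member with 95% intervals from limma (3 arrays per group). Every interval includes 0, and those of Hhip are the widest.

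Wild type pools differed from each other in Hhip and Gas1 in a way that both regions shared. Hhip in wild type replicate 2 stood 0.45 above its hemisphere mean and 0.39 above its vermis mean, and in replicate 3 it stood at -0.55 and -0.49. Gas1 took the opposite course in the same pools, at -0.37 and -0.18 in replicate 2 and at 0.43 and 0.30 in replicate 3. Over the 6 members, deviations of same-numbered hemisphere and vermis arrays had the same sign in 10 of 18 cases in SmoM2 and in 14 of 18 in wild type. The share over all genes was not computed. Deviations are taken from the mean of their own group, so the 18 cases are not independent and the counts are descriptions only. Across all genes same-numbered arrays correlated in their deviations at 0.142 to 0.275 in SmoM2 and at 0.337 to 0.527 in wild type. Genes are not independent replicates, and that the same mice gave both regions is not stated in the labels. Wild type hemisphere replicate 3 was also the array with the lowest dap controls, 7.92, and the lowest Actb difference, 0.46, whereas wild type vermis replicate 3 read 10.44 and 0.90.

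The spread between arrays was narrower in SmoM2 for some members. The SD within groups, over both regions, was 0.08 in SmoM2 and 0.48 in wild type for Hhip, and 0.09 and 0.34 for Gas1. The ratio of these SDs, SmoM2 over wild type, was 0.18 for Hhip and 0.27 for Gas1, where the median of all genes was 0.72. Lower ratios were found for 1.81% and 6.84% of genes. For Ptch1 the ratio was 0.42, for Smo 0.78, for Boc 1.00 and for Cdon 1.32. These are descriptions of 6 arrays per genotype and carry no test.

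**Figure D5:**
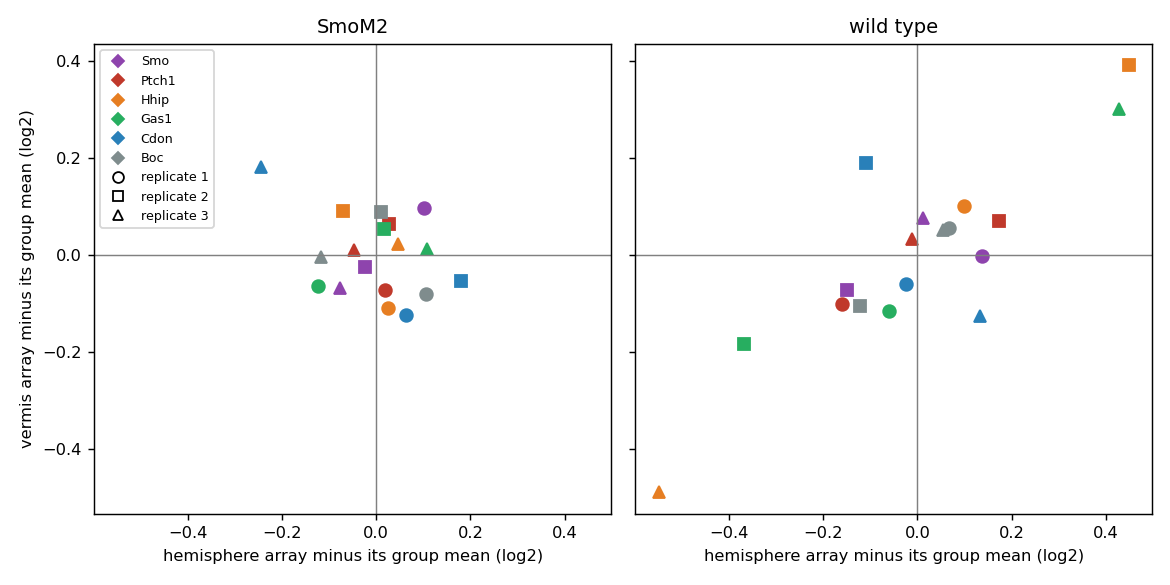
Deviation of each hemisphere array from its group mean (horizontal axis, log2) against that of the vermis array with the same replicate number (vertical axis), for SmoM2 (left) and wild type (right). Colours are genes and symbols are replicates. In wild type, Hhip and Gas1 reach 0.45 and 0.43 in the hemisphere in different pools, and the Hhip and Gas1 points of SmoM2 lie nearer to 0, which those of Cdon do not.

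Genes with the most similar pattern over the 12 arrays were found by the root mean square difference after centring each gene on its own mean, among genes brighter than the median gene. Nearest to Ptch1 were Asap1 (0.11), Lap3 (0.14) and Myc (0.15), with SmoM2 minus wild type differences of 1.84, 1.65 and 1.71 in the hemisphere. Nearest to Hhip were the sodium leak channel gene Nalcn (0.24), the cadherin Cdh20 (0.31) and Pdzrn4 (0.33), which differed by 2.98, 2.26 and 1.91. For Gas1 they were N4bp3 (0.10), Bahcc1 (0.11) and Abtb2 (0.13), and for Boc Ano6 (0.09), Huwe1 (0.09) and Lrrn1 (0.09). Cdon was nearest to Ier5 (0.15), Tmem131 (0.16) and Cebpb (0.16). Smo had the closest neighbours, Paxip1 (0.06), Trim28 (0.07) and Ddx27 (0.07). Values were not scaled, so genes that vary little lie close to many others, and Smo had the smallest genotype differences of the members. The distances of different members therefore do not rank how alike the patterns are.

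Other parts of the pathway were read from gene lists, with the share of all genes called lower being 7.18% in the hemisphere and 9.46% in the vermis. Among 9 genes of the ligands and their release, 0 rose and 2 fell in the hemisphere. In the vermis 1 gene of that list rose and 1 fell. Scube2, which helps release lipid-modified ligand, averaged 5.21 in SmoM2 hemisphere and 5.99 in wild type hemisphere, and fell by 0.78 there and by 0.64 in the vermis (adjusted p = 0.00286 and 0.0095 by limma). The other gene that fell in the hemisphere was the ligand gene Dhh, which averaged 3.52 in SmoM2 and 3.95 in wild type, close to the lower quartile. The difference of -0.43 (adjusted p = 0.0415 by limma) was lost in 12 of 21 alternatives, 7 of which left out an array (adjusted p 0.051 to 0.173, highest without SmoM2 hemisphere replicate 1).

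Shh, the ligand itself, was dim in every group. It averaged 4.004 in SmoM2 hemisphere and 3.80 in wild type hemisphere, a difference of 0.20 that did not pass (adjusted p = 0.595 by limma). In the vermis it averaged 4.68 in SmoM2 and 3.83 in wild type, and rose by 0.85 ± 0.24 (SE, n = 3 arrays per group, adjusted p = 0.0275 by limma). The regions' effects differed by -0.65 (95% interval -1.38 to 0.08), which did not pass. The vermis call was lost without SmoM2 vermis replicate 1 (difference 0.50, adjusted p = 0.0945 by limma) or replicate 3 (0.0542). It was also lost without wild type vermis replicates 1, 2 or 3 (0.0659, 0.0573 and 0.0633), without moderation (0.104) and with the mean of all Shh probe sets (0.0798).

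Of 8 other ligand-binding or receptor-associated genes, 2 rose and 1 fell in each region. Glypicans are heparan sulfate proteoglycans of the cell surface, and their genes went both ways. Gpc3 averaged 8.18 in SmoM2 hemisphere and 7.48 in wild type hemisphere and rose by 0.70 there and by 0.55 in the vermis (adjusted p = 0.000833 and 0.00471 by limma). Gpc4 averaged 6.64 in SmoM2 hemisphere and 7.64 in wild type hemisphere and fell by 1.00 there and by 0.97 in the vermis (adjusted p = 0.00015 and 0.00019). The other gene that rose was Gpc1 (0.60 and 0.48), whose call was lost in 4 of 22 alternatives in the hemisphere and 10 of 22 in the vermis. Of these, 3 left out an array in the hemisphere (SmoM2 replicates 1 and 2 and wild type replicate 2, adjusted p 0.0508 to 0.0669), and 8 did so for the vermis value (0.0521 to 0.155, highest without wild type vermis replicate 2).

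Among 14 genes that act with or just after Smoothened, 2 rose and 0 fell in each region, Evc and Kif3a in the hemisphere and Evc and Kif7 in the vermis. Evc, a ciliary partner of Smoothened, was higher by 0.65 and 0.61, but by 0.15 and 0.22 with the mean of its probe sets (adjusted p = 0.38 and 0.18 by limma). Leaving out SmoM2 replicate 1 or wild type replicate 2 also ended its hemisphere call (0.0656 and 0.0739), and 4 vermis arrays did so in the vermis (SmoM2 replicates 1 and 2, wild type replicates 2 and 3, adjusted p 0.0612 to 0.0929). Kif3a, a motor subunit of ciliary transport, was higher by 0.59 in the hemisphere (0.0121), a call lost without SmoM2 or wild type hemisphere replicate 3 (0.05 and 0.0511), and its vermis difference of 0.43 (0.053) passed in 10 of 22 alternatives. Kif7, a kinesin that regulates Gli factors at the cilium, differed by 0.27 in the hemisphere (0.0888) and rose by 0.35 in the vermis (0.0302), and leaving out any of the 6 vermis arrays ended that call (0.0542 to 0.0825). The median of these 14 genes was 0.18 in the hemisphere and 0.06 in the vermis, against -0.05 and -0.06 over all genes. Of the 4 genes for Gli factors and Sufu, 2 rose and 0 fell in each region. Gli1, the Gli factor most used as a readout of the pathway, averaged 8.81 in SmoM2 hemisphere and 7.13 in wild type hemisphere, and 8.66 in SmoM2 vermis and 7.15 in wild type vermis. Its differences, 1.68 ± 0.14 and 1.50 ± 0.14 (SE, n = 3 arrays per group), lay near those of Ptch1. The other was Gli2 (0.49 in each region), whose call was lost in 12 of 22 alternatives in the hemisphere and 10 of 22 in the vermis. Leaving out 1 array ended it in 9 and 8 cases, with the highest adjusted p without wild type hemisphere replicate 2 (0.185) and without wild type vermis replicate 2 (0.178).

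Of 10 measured progenitor targets of the pathway beside the members, 4 rose and 1 fell in the hemisphere. In the vermis 5 of them rose and 1 fell. Gli1, given above, is also in the list of Gli factors and Sufu. Atoh1, counted here among the genes that rose, is also a progenitor marker and is given below. Ccnd1, the cyclin D1 gene of the G1 phase, rose by 1.37 in the hemisphere and 1.59 in the vermis (adjusted p = 2.16e-05 and 5e-06 by limma). Igf2, a growth factor gene, fell by 0.60 and by 0.73, and its hemisphere call was lost without SmoM2 hemisphere replicate 1 (0.0653) or wild type hemisphere replicate 3 (0.0519), without moderation (0.0576) and with the mean of its probe sets (0.0913). The median difference of these targets was 0.30 and 0.39.

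The identity of the cells was checked against marker genes. Atoh1, the defining factor of granule cell progenitors, averaged 8.98 in SmoM2 hemisphere and 8.16 in wild type hemisphere, and 8.71 in SmoM2 vermis and 7.85 in wild type vermis. Its rise of 0.82 and 0.85 passed (adjusted p = 0.000363 and 0.000236 by limma), and the Cre driver of the SmoM2 mice carries Atoh1 control sequence. The same rise is counted among the pathway targets above, so it is not a separate reading of identity. Of the 7 progenitor markers 1 rose and 2 fell in the hemisphere, Barhl1 (-0.97) and Pax6 (-0.55, adjusted p = 0.0302 and 0.0013 by limma). In the vermis 1 rose and 1 fell, Pax6 (-0.56, adjusted p = 0.00103 by limma). The list's mean ranged from 10.43 to 10.48 in SmoM2 hemisphere and 10.55 to 10.75 in wild type hemisphere. Its vermis range was 10.39 to 10.47 in SmoM2 and 10.44 to 10.61 in wild type. Of 7 granule neuron markers 4 fell in each region, and the list's mean ranged from 8.15 to 8.30 in SmoM2 hemisphere, 8.83 to 9.06 in wild type hemisphere, 8.18 to 8.23 in SmoM2 vermis and 8.89 to 8.96 in wild type vermis.

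Markers of other cells moved with genotype as well. Of 10 oligodendrocyte lineage markers 6 fell and 2 rose in each region, with list means of 7.39 to 7.89 in SmoM2 hemisphere, 8.01 to 8.15 in wild type hemisphere, 7.48 to 7.91 in SmoM2 vermis and 8.31 to 8.70 in wild type vermis. Of 7 microglial markers hemisphere calls were 4 lower and vermis calls 6 lower, with means of 5.18 to 5.48 in SmoM2 hemisphere, 5.80 to 6.25 in wild type hemisphere, 5.19 to 5.66 in SmoM2 vermis and 6.04 to 6.19 in wild type vermis. The list of GABAergic interneuron markers held 5 measured genes, Gad1, Gad2, Slc32a1, Lhx1 and Lhx5. Hemisphere calls were 3 lower (Gad1, Slc32a1 and Lhx1), and vermis calls were 5 lower. Means of this list were 5.67 to 6.14 in SmoM2 hemisphere and 6.44 to 6.64 in wild type hemisphere. For the vermis they were 5.44 to 5.86 in SmoM2 and 6.71 to 6.84 in wild type. Whether these genes separate interneurons from Purkinje cells was not tested, so the lower calls are not assigned to interneurons. Astroglial markers went both ways, 2 of 9 higher and 2 lower in each region, with list means of 8.69 to 9.18 in SmoM2 hemisphere, 8.99 to 9.42 in wild type hemisphere, 8.99 to 9.40 in SmoM2 vermis and 9.16 to 9.50 in wild type vermis. Among 7 meningeal fibroblast markers 2 were higher and 2 lower in the hemisphere, whereas vermis calls were 1 higher and 2 lower, with means of 7.53 to 7.79 in SmoM2 hemisphere, 7.67 to 7.97 in wild type hemisphere, 7.59 to 7.80 in SmoM2 vermis and 7.89 to 8.02 in wild type vermis.

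Of 8 endothelial and pericyte markers 0 passed in either direction in the hemisphere and 4 passed as lower in the vermis. Means of this list were 6.36 to 6.60 in SmoM2 hemisphere and 6.21 to 7.01 in wild type hemisphere. For the vermis they were 5.79 to 6.40 in SmoM2 and 6.61 to 6.94 in wild type. Of the 4 genes on the Purkinje list, which leaves out those of the GABAergic list, 0 passed in the hemisphere and 1 passed as lower in the vermis. Their means were 4.04 to 4.96 in SmoM2 hemisphere and 4.63 to 4.71 in wild type hemisphere. For the vermis they were 4.59 to 4.79 in SmoM2 and 5.15 to 5.42 in wild type. Of the 2 unipolar brush cell markers 1 fell in each region, with list means of 4.14 to 4.43 in SmoM2 hemisphere, 5.17 to 5.48 in wild type hemisphere, 4.30 to 4.51 in SmoM2 vermis and 5.40 to 5.83 in wild type vermis. It was Eomes, a transcription factor of these cells, which averaged 5.64 in SmoM2 hemisphere and 7.59 in wild type hemisphere, and 6.11 in SmoM2 vermis and 8.27 in wild type vermis. Eomes fell by 1.95 in the hemisphere (adjusted p = 1.14e-05 by limma). In the vermis it fell by 2.15 (adjusted p = 4.4e-06 by limma). The other, Lmx1a, was the 1 marker below the lower quartile of every array. The part of these cell types in the values of the 6 members was not tested.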

How the data were processed

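Each deposited value is the log2 expression of a probe set on an array, made by the authors with Partek and RMA, per the submitters' processing notes. RMA corrects background, equalizes the arrays' distributions by quantiles and combines the probes into a set value. It gives no detection call and compresses differences of dim probe sets. Versions of Partek and RMA were not stated. Biotin-labelled cRNA was hybridised to Affymetrix mouse arrays, per the labels and the series' design text, and samples were grouped by title.

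Of 45101 probe sets 64 were controls, and 34945 of the rest had 1 gene symbol in the platform annotation. Genes were tested with limma 3.58.1 (R 4.3.3) in 1 model with 4 group means, over 18193 genes at the brightest probe set, and again over 45037 probe sets. All tests were two-sided, with Benjamini-Hochberg adjustment. Intervals are 95% intervals of that fit. The model was tested on simulated data.

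Members and lists were chosen with earlier results of these data known. Named genes were the members, up to 4 passing genes of each list by size in the hemisphere, Shh, Gli1 and the 3 genes nearest to each member. Kif7, Barhl1, Pax6, Eomes, Lmx1a and the genes of the GABAergic list fall outside this rule and were chosen after their values were seen. Some listed genes are not reported here. Same-numbered hemisphere and vermis arrays of a genotype deviated together in 6 of 6 pairs (correlation over 0.1), and those of different genotypes did so in 3 of 12 (-0.224 to 0.277). The numbers were taken to pair regions within a genotype only. For SmoM2 this is an assumption, since its correlations (0.142 to 0.275) lay within the range between genotypes. Alternatives were blocks for replicate or pool, other normalization, centring, probe set rule, brightness filter, moderation, array weights, a fit of only the groups compared, and each array left out. A fit of the region differences with each pool as a fixed block was added after seeing the data. The number of arrays, 3 per group, limits precision. Pools of a group are separate by label. The p-values of the main fit rest on a variance pooled over all 4 groups (8 residual degrees of freedom) and moderated across genes. They do not measure the spread within the compared groups alone. Same-numbered hemisphere and vermis arrays entered that fit as independent, although they may share a pool. For Hhip the SD was 0.08 in SmoM2 and 0.48 in wild type, so the pooled variance describes neither genotype.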

Additional observations from a re-analysis of the deposited data

How the results depend on the processing

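The 12 SmoM2 differences of the members were recomputed under 10 alternatives and with each of the 12 arrays left out, 264 values in all, of which 261 kept direction and call and 0 reversed. Exceptions were Smo in the vermis, which passed with trended and robust moderation (0.28, adjusted p = 0.0433 by limma) and with array weights (0.29, adjusted p = 0.039), and Cdon in the vermis, which did not with the mean of all probe sets (0.21, adjusted p = 0.221). Over these alternatives the adjusted p of Smo ran from 0.00219 to 0.0455 for the hemisphere and from 0.039 to 0.228 for the vermis. No region difference of a member passed under any of them. With the replicate block Smo had adjusted p of 0.00612 in the hemisphere; its vermis value was 0.0549, and the block changed no call of a member.

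Counts over all genes moved more. In the hemisphere the SmoM2 count was 2694, 1753 with only the groups of the contrast and 1633 to 4277 with 1 array left out (1633 and 1704 without SmoM2 hemisphere replicates 1 and 3, 4277 without wild type hemisphere replicate 1). In the vermis it was 3096, and 1756 to 3828 with 1 array left out (1795 and 1756 without SmoM2 vermis replicates 1 and 2, 1873 and 1920 without wild type vermis replicates 2 and 3). Hemisphere against vermis in SmoM2 gave 11 genes, 39 with the pool as a random block, 1 without moderation, 42 with array weights and 2 to 18 with 1 array left out. In wild type it gave 34, and 198, 5 and 15 in that order, 3 with only the groups of the contrast and 8 to 58 with 1 array left out. The difference between the SmoM2 effects gave 0, and 0 to 1 with 1 array left out (1 without SmoM2 hemisphere replicate 3). With each pool as a fixed block, chosen after seeing the data, the 3 counts were 15, 49 and 0. The cause of these shifts was not tested. Shifting or renormalizing the arrays moved the median of all genes by less than 0.1.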
